A study of Saccharomyces cerevisiae with 30 samples.

Results

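The thiol defence of Saccharomyces cerevisiae was followed through 10 genes of the thioredoxin, glutathione and peroxiredoxin systems. They were chosen by name for their role, with no threshold on a measured value but with earlier results of these data known. They stood among 7126 features in the auxin and diazaborine tables and 6777 in the diamide files. All 10 were present in every file and passed the filters on low values used for the main results. SRX1 fell below the stricter alternative filter, a mean of at least 100, in the Rat1, Rrp44 and Las1 comparisons. The genes were TRX2 (YGR209C), TRR1 (YDR353W), TSA1 (YML028W), TSA2 (YDR453C), AHP1 (YLR109W), SRX1 (YKL086W), GSH1 (YJL101C), GLR1 (YPL091W), GPX2 (YBR244W) and their regulator YAP1 (YML007W).

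Proteins carry cysteine thiols that oxidants can join into disulfides, and yeast returns them to the reduced state by passing electrons from NADPH through thioredoxin or glutathione. Peroxiredoxins and glutathione peroxidases spend the same electrons on removing peroxides. The bZIP transcription factor Yap1 is kept out of the nucleus by the exporter Crm1, collects there when its own cysteines are oxidised, and switches on many genes of both systems, so its activity can rise with no change in its mRNA. Diamide is a small molecule that oxidises thiols directly.

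RNA-seq of rRNA-depleted total RNA was collected from log-phase BY4741 derivatives under 3 kinds of challenge. Ribosomal RNA processing factors were removed by auxin-induced degradation, in which the plant adaptor osTIR1, driven by GPD1pr at the deleted leu locus, targets an IAA7-tagged protein to the proteasome. Strains YBT100, YBT174, YBT178 and YBT171 carried the 3xV5-IAA7 tag on RAT1, RRP44, LAS1 and RRP17, the strain YBT155 carried osTIR1 alone (WT-TIR1), and all 5 also carried RPB3-3xFLAG. Each received auxin (100 uM indole-3-acetic acid) or a mock treatment for 20 min. BY4741 without any of these alleles received diazaborine (DZA, 15 ug/ml), which inhibits the ATPase Drg1 and so blocks maturation of the large ribosomal subunit, or 0.1% DMSO for 15 or 45 min. YSC001, BY4741 with RPB3-3xFLAG, was sampled before and 15 min after 1.5 mM diamide. Auxin and DZA groups had 2 libraries each (A and B, grown on separate days, and for auxin from separate strain isolates), and the diamide times had 1 library each, made with an in-house library protocol.

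The 26 auxin and DZA libraries with whole recovered reads and distinct content held between 15014154 and 99585064 reads on features (median 32782749), and the diamide libraries held 4613828 and 5045070. The RRP17-AID mock columns A and B were identical in all 7126 features and were counted as 1 library, so Rrp17 depletion has no test. The tag acts on the protein, so the mRNA of RAT1, RRP44 (named DIS3 in the annotation) or LAS1 does not check the depletion, and none of these was called in its own strain. Normalization is relative to the other transcripts of a library, so a change shared by all transcripts would not be seen, and fewer cells with a transcript cannot be told apart from less of it in each cell.

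The upstream regions are shown first, because no expression value enters them and because Yap1 elements bear on the regulator in the set. The genes were chosen by known role together with that regulator, so their share with Yap1 elements is not independent of the choice. The bases before each start codon were read from the R64 genome and searched on both strands for the Yap1 elements, which were spelled TTACTAA in the first form, TGACTAA in the second form and TTACGTAA in the palindromic form, for the stress element AGGGG bound by Msn2 and Msn4, and for a facing pair of heat shock units, spelled GAANNTTC in the one case and TTCNNGAA in the other. None of these is contained in another, although TTACTAA and the palindromic form share their first 4 bases. In windows from 250 bases before to 50 bases after the start of translation, 4 of the 10 genes held a Yap1 element, and 688 of 6001 protein-coding genes did (11.5%). With 500 bases before the start, 8 of the 10 genes held at least 1 Yap1 element, beside 19.4% of 6000 genes, and the exceptions were TSA1 and YAP1 itself. Selected sites are printed on the strand of their gene, from 5′ to 3′, with the motif in capitals and the place of its first base counted from the start codon, where TTAGTAA is the first form and TTAGTCA the second form read from the other strand.
TRX2, chrVII:913428-913454, minus strand, motif at -217: gtttatactcTTAGTAAaggatgctcc
TRX2, chrVII:913392-913418, minus strand, motif at -181: ggctcttttcTTACTAAgcgcgttcag
SRX1, chrXI:278120-278146, plus strand, motif at -151: gccattatttTTAGTCAttacagtagc
SRX1, chrXI:277970-277996, plus strand, motif at -301: ttttccctgaTTAGTAAgctacatcat
TRR1, chrIV:1183097-1183123, plus strand, motif at -192: tagcttctccTTAGTCAtggagaaaaa
GLR1, chrXVI:375301-375327, plus strand, motif at -191: ttgacgtcacTTAGTAAgcacgaccct
GSH1, chrX:236724-236750, minus strand, motif at -384: acggctgccaTTAGTCAgcatggcgcg
GPX2, chrII:707258-707284, plus strand, motif at -260: atctagacaaTTAGTAAttccgatgac
YAP1, chrXIII:253735-253759, plus strand, stress element at -103: ttttcctgagCCCCTggttgacttg

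The stress element occurred in the shorter window of 4 of the 10 genes, beside 21.6% of all genes, and in the longer window of 7, beside 36.4%. The heat shock pair occurred in 1 of them, AHP1, beside 37.8% of all genes, and its first base lay at -53. Inside 250 bases TRX2 held 2 Yap1 elements, and its fold after diamide was 3.60. SRX1, TRR1 and GLR1 held 1 each, with folds of 8.20, 2.74 and 1.54. The rest held none, with folds from 1.52 for YAP1 to 3.33 for GPX2. A link between elements and folds was not tested. A match is a run of letters and was not tested as a binding site. AHP1 and TSA2 are on the list of Msn2/4 targets that the study used, and none of the 10 is on its list of Hsf1 targets.

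**Figure D1:**
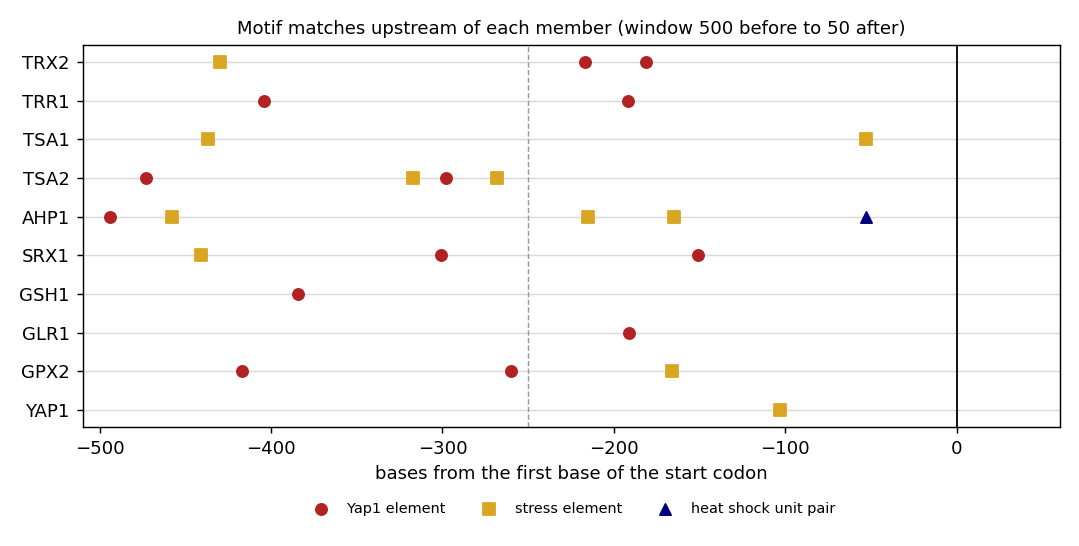
Positions of motif matches in bases from the first base of the start codon, 1 row for each gene, in windows of 500 bases before to 50 after; red circles are Yap1 elements, gold squares the stress element and the blue triangle the heat shock pair. Yap1 elements stand in 8 of 10 rows, and the dashed line marks 250 bases before the start.

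The 10 genes were single-exon genes on 8 chromosomes, and none overlapped another RefSeq gene. In the transcript intervals of the diamide files, which are longer than the coding part, the end of YAP1 overlapped GIS4 on the other strand, TRX2 overlapped SER2, TSA2 overlapped PPN1, and TSA1 overlapped USA1 on its own strand. Whether reads were assigned by strand is not given in the sources used here. GIS4 was not called in any of the 6 replicated comparisons and went from 11.2 to 8.37 RPKM with diamide. USA1 was called lower after Rrp44 depletion (log2 change -0.67, limma, adjusted p = 0.00231) and Las1 depletion (-0.35, adjusted p = 0.0123), where TSA1 was not called, and went from 44.3 to 72.3 RPKM with diamide. SER2 was called lower after Las1 depletion (-0.57, adjusted p = 0.00177) and at 45 min of DZA (-0.42, adjusted p = 0.00494), where TRX2 was called higher. PPN1 was called lower at 45 min of DZA (-0.28, adjusted p = 0.0151). The part of these neighbours in the values of the 4 genes was not tested. TSA1 and TSA2 share 78.5% of their coding bases with a longest shared run of 14 bases, and TRX2 shares 73.0% with TRX1 and a longest run of 17 bases, so that no stretch of 50 bases is common to either pair.

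Levels of the 10 transcripts spanned a wide range before any treatment. Per kb of coding length, the normalized count in the WT-TIR1 mock libraries A and B was 112355 and 111996 for the peroxiredoxin TSA1, 100848 and 102123 for the peroxiredoxin AHP1, 37902 and 33692 for thioredoxin TRX2, and 27464 and 27277 for thioredoxin reductase TRR1. The glutathione peroxidase GPX2 followed at 15701 and 12344, glutathione reductase GLR1 at 7279 and 7904, YAP1 at 5703 and 5480.2, and GSH1, which makes the first intermediate of glutathione, at 3903 and 4216. The peroxiredoxin TSA2 had 1131 and 876 and sulfiredoxin SRX1, which repairs over-oxidised peroxiredoxins, had 239 and 283. The A and B values of neighbours in this order did not overlap, and TSA1 stood 430-fold above SRX1 on this scale. In the untreated diamide library, on the RPKM scale, AHP1 (1452) stood above TSA1 (1259), GLR1 (64.3) above GPX2 (50.9) and YAP1 (34.6) level with GSH1 (34.8).

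Diamide addresses the thiol system directly, and the median change of the 10 transcripts was larger in size than in any of the other 7 comparisons. All 10 genes were higher at 15 min than at 0 min, beside 44.4% of 5760 features with a mean of at least 1 RPKM, and 7 of the 10 were at least 2-fold higher, beside 8.37% of those features. None was at least 2-fold lower, beside 9.03%. The median log2 change of the 10 was 1.34, on the log2(RPKM + 0.1) scale, and that of all features was -0.08. With 1 library at each time no test is possible, and the intervals given here are exact intervals that cover counting error only.

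Sulfiredoxin had the largest fold of the 10. SRX1 went from 12.1 to 99.9 RPKM, from 42 to 414 reads, which is 8.20-fold (95% counting interval 6.0 to 11.6) and placed it 26th of 5760 features. It began level with TSA2 as the lowest of the 10 and ended near GLR1 and GSH1, above TSA2 and YAP1.

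Thioredoxin TRX2 and the reductase TRR1 were both more than 2-fold higher, while the TRX2 paralog TRX1 was not. TRX1 went from 324 to 295 RPKM (0.91-fold, interval 0.84 to 0.99). TRX2 went from 347 to 1249 RPKM (3.60-fold, interval 3.37 to 3.84) and TRR1, which passes electrons from NADPH to thioredoxin, from 209 to 573 RPKM (2.74-fold, interval 2.60 to 2.90). Among the enzymes that take electrons from thioredoxin, AHP1 went from 1452 to 3707 RPKM (2.55-fold), TSA2 from 12.3 to 28.8 RPKM (2.33-fold, interval 1.76 to 3.14) and TSA1 from 1259 to 2487 RPKM (1.98-fold, interval 1.92 to 2.03). TSA1 lay just inside 2-fold and TSA2, on 67 and 187 reads, just beyond it, and the counting interval of each spanned 2-fold.

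GPX2, a glutathione peroxidase by name, went from 50.9 to 169.7 RPKM (3.33-fold, interval 2.90 to 3.84). On the glutathione side, GSH1 went from 34.8 to 88.0 RPKM (2.52-fold). GLR1, which reduces glutathione disulfide, went from 64.3 to 98.7 RPKM (1.54-fold, interval 1.40 to 1.68). YAP1 itself had the smallest fold, from 34.6 to 52.7 RPKM (1.52-fold, interval 1.38 to 1.69), and ranked 916th of 5760. GLR1 lay close to it at 895th, and their counting intervals overlapped.

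**Figure D2:**
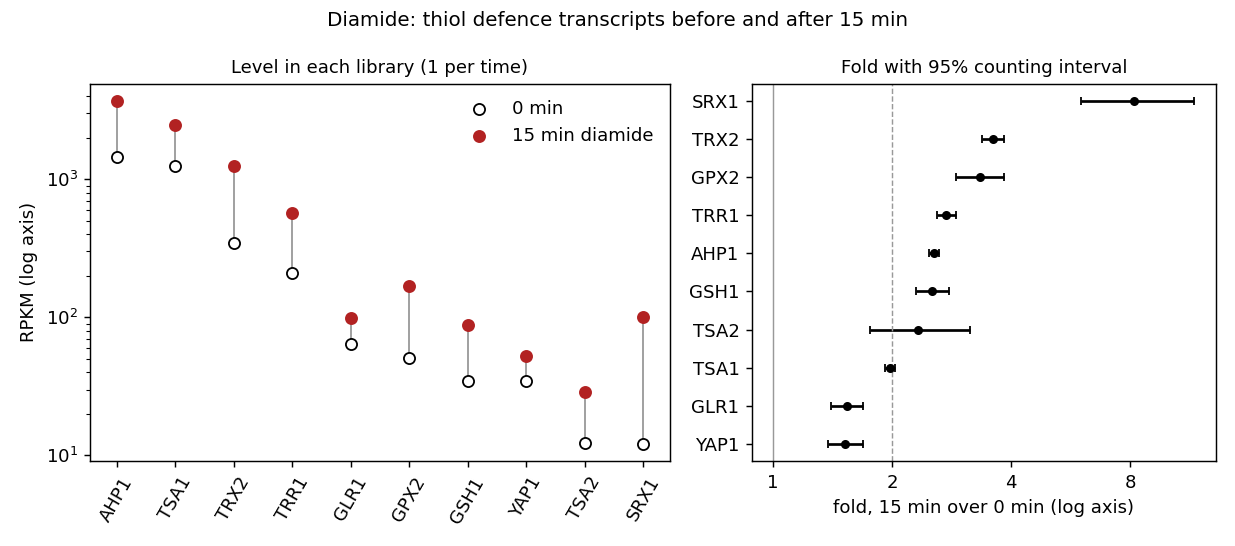
Left, RPKM of each gene at 0 min (open) and 15 min (red) of diamide, 1 library each, on a log axis; right, the fold with its 95% counting interval, with lines at 1-fold and 2-fold. All 10 genes lie to the right of 1, from 1.52-fold for YAP1 to 8.20-fold for SRX1.

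Auxin given to cells without a tagged protein was the control for auxin itself. With limma, no feature of 6295 was called (0.0%), and 48 features had an unadjusted p under 0.05, none of them among the 10. DESeq2 called 2 features and edgeR, like limma, called 0, again none of the 10. The median log2 change of the 10 genes was 0.12, beside -0.01 for all features. YAP1 was 11137 and 10703 in the mock libraries and 8845 and 10136 in the auxin libraries, a log2 change of -0.21 ± 0.14 (SE, n = 2 per group, limma, adjusted p = 1.0).

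Depletion of ribosomal RNA processing factors gave few calls among the 10 genes. YAP1 rose after Rrp44 and after Las1 depletion, and TRR1 fell after Las1 depletion. After Rat1 depletion, which removes the nuclear exonuclease that trims pre-rRNA 5′ ends, limma called 16.7% of 6524 features, 10.7% higher and 6.02% lower, and none of the 10 genes, with 2 of the 10 at an unadjusted p under 0.05. DESeq2 and edgeR also called none of the 10. Their median log2 change was 0.01 beside -0.01 for all features. Of the called features, 64% were higher, and 76.3% after each library was centred on its median. YAP1 was 10216 and 11147 in mock and 14712 and 12686 in auxin libraries, without overlap, a log2 change of 0.36 ± 0.14 (limma, adjusted p = 0.139). GPX2 was 5029 and 6127 in mock and 4100 and 4052 in auxin libraries, a log2 change of -0.45 ± 0.15 (limma, adjusted p = 0.0872), and it was called lower with the replicate letter as a block (limma, adjusted p = 0.0380).

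After depletion of Rrp44, the catalytic subunit of the RNA exosome, 25.3% of 6343 features were called, 15.1% higher and 10.2% lower, and YAP1 was the only 1 of the 10. YAP1 was 6004 and 6478 in mock and 8279 and 9308 in auxin libraries, so every auxin value lay above both mock values. The log2 change was 0.49 ± 0.09, or 1.41-fold (limma, adjusted p = 0.00958), but without auxin library B the adjusted p was 0.0916. The log2 changes of the 9 enzymes ran from -0.20 for TRR1 (limma, adjusted p = 0.110) to 0.17 for AHP1 (limma, adjusted p = 0.150), and the median of all 10 was 0.01 beside -0.01 for all features. Without mock library B, TRR1 was called lower at -0.25 (limma, adjusted p = 0.0262).

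After depletion of Las1, the endonuclease that cuts the second internal spacer of pre-rRNA, 33.7% of 6103 features were called, 16.5% higher and 17.2% lower, and of the 10 genes YAP1 rose and TRR1 fell. YAP1 was 4457 and 4386 in mock and 7901 and 7951 in auxin libraries, a log2 change of 0.84 ± 0.08, or 1.79-fold (limma, adjusted p = 0.000162), which was called in every alternative run. TRR1 was 9258 and 9425 in mock and 8123 and 7318 in auxin libraries, a log2 change of -0.28 ± 0.09 (limma, adjusted p = 0.0478). The TRR1 call sat at the threshold and was lost in DESeq2 (adjusted p = 0.0647), edgeR (adjusted p = 0.0766) and 8 further settings, whereas it was retained with both pseudocounts, with the replicate block and without auxin library A.

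AHP1 was the nearest to a call among the rest after Las1 depletion. It was 18916 and 17922 in mock and 23948 and 22177 in auxin libraries, which do not overlap, a log2 change of 0.32 ± 0.11 (limma, adjusted p = 0.0536). With the replicate block it was called higher (limma, adjusted p = 0.0144), as it was in edgeR (adjusted p = 0.0424) and DESeq2 (adjusted p = 0.0108). TRX2, at 4076 and 3792 in mock and 4149 and 2976 in auxin libraries, and TSA1, at 22814 and 24165 in mock and 23584 and 18742 in auxin libraries, spread more between auxin libraries than between groups. Without auxin library A both were called lower, TRX2 at -0.40 (limma, adjusted p = 5.3e-05) and TSA1 at -0.33 (limma, adjusted p = 0.00322).

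SRX1, TSA2, GSH1 and GLR1 were never called under auxin. SRX1 was 93.5 and 79.8 in RAT1-AID mock and 120.8 and 97.3 in auxin libraries, a log2 change of 0.32 ± 0.29 (limma, adjusted p = 0.499), and in WT-TIR1 it was 91.8 and 109 in mock and 113 and 139 in auxin libraries, a log2 change of 0.33 ± 0.27. After Rrp44 and Las1 depletion the SRX1 log2 change was 0.02 and 0.17. Over the 4 auxin comparisons TSA2 ranged from -0.24 to 0.24, GSH1 from -0.31 to 0.19 and GLR1 from -0.13 to 0.12 on the log2 scale.

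Rrp17 depletion, of a further pre-rRNA exonuclease, can only be described against its 1 mock library. The paper describes tagged Rrp17 as a partial loss-of-function allele, with pre-rRNA building up and growth reduced already without auxin. The mock library is therefore not an unperturbed baseline. None of the 10 genes was 2-fold from the mock in both auxin libraries, beside 0.754% of 6103 features. YAP1 was 7949 in the mock library and 10043 and 9196 in the auxin libraries, log2 differences of 0.34 and 0.21, and was the furthest above 0 of the 10. The enzymes lay between a mean log2 difference of -0.16 for TRX2, at 6457 in mock and 6384 and 5266 in auxin libraries, and 0.18 for SRX1, at 69.7 in mock and 78.7 and 79.3 in auxin libraries.

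The difference between a depletion and the auxin control was tested by an interaction term over 8 libraries. For YAP1 the Las1 change exceeded the WT-TIR1 change by 1.05 ± 0.15 on the log2 scale (95% interval 0.71 to 1.38, limma, adjusted p = 0.00505), where 7.54% of 6076 features differed. It stayed called in all leave-one-out fits, with adjusted p up to 0.0420. The Rrp44 excess was 0.70 ± 0.15 (interval 0.34 to 1.06, limma, adjusted p = 0.0448), where 5.08% of 6199 features differed. That call was lost in 7 of the 8 fits that left out 1 library, with adjusted p up to 0.222, and kept without WT-TIR1 auxin library B. The Rat1 excess was 0.56 ± 0.19 (interval 0.12 to 1.0, limma, adjusted p = 0.146) and was not called, where 5.46% of 6279 features differed.

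None of the 9 enzymes was called as different from the auxin control after Las1, Rrp44 or Rat1 depletion, and for Rrp17 depletion this was not tested. The furthest from 0 was GPX2 after Rat1 depletion, at -0.60 ± 0.24 (95% interval -1.14 to -0.06, limma, adjusted p = 0.207), an interval that leaves out 0 before adjustment. The other intervals were wide enough to hold changes of some size: for TRX2 the Las1 difference was -0.30 (95% interval -0.93 to 0.34), for SRX1 -0.15 (interval -1.02 to 0.71) and for GSH1 -0.06 (interval -0.46 to 0.34). Between depletions no member was called. YAP1 was 0.49 higher after Las1 than after Rat1 depletion on the log2 scale (interval 0.15 to 0.82, limma, adjusted p = 0.129, 2.44% of 6102 features called) and 0.35 higher than after Rrp44 depletion (interval 0.09 to 0.61, limma, adjusted p = 0.261, 0.805% of 6090 features called). Rrp44 and Rat1 depletion differed by 0.14 for YAP1 (interval -0.24 to 0.51, limma, adjusted p = 0.696, 2.17% of 6305 features called). The Las1 against Rat1 difference was called without RAT1-AID auxin library A (0.59, limma, adjusted p = 0.0303).

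**Figure D3:**
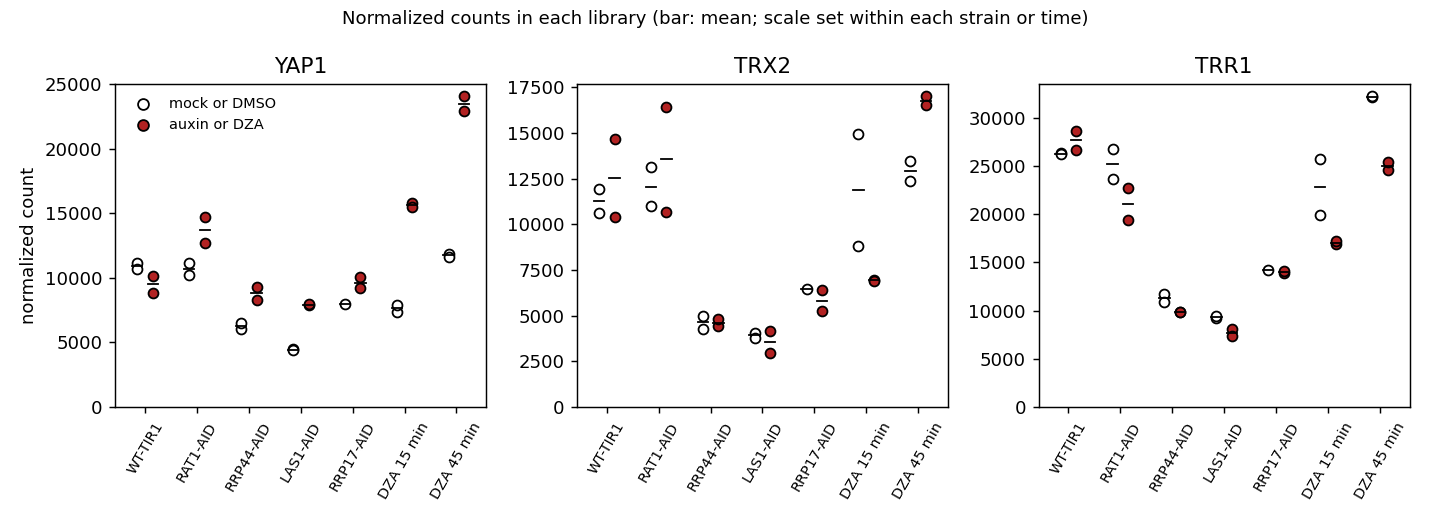
Normalized counts for YAP1, TRX2 and TRR1 in each library; open points are mock or DMSO, red points auxin or DZA, and bars are group means, with 1 mock library for RRP17-AID. YAP1 stands higher in treated than in control libraries of every strain and time but WT-TIR1, and levels are scaled within each strain or time only.

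Diazaborine disturbs ribosome assembly with no tagged protein involved. At 15 min, YAP1 was the only 1 of the 10 genes called, where limma called 4.93% of 6311 features, 3.8% higher and 1.13% lower. YAP1 was 7360.2 and 7899 in the DMSO libraries and 15793 and 15443 in the DZA libraries, a log2 change of 1.03 ± 0.12, or 2.05-fold (limma, adjusted p = 0.0302). The other 9 genes all had log2 changes below 0, and their median was -0.28. The median of all 10 was -0.26 beside -0.02 for all features.

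The lowest of these changes were those of TRX2 and TSA1, and neither was called by limma. TRX2 was 14929 and 8832 in DMSO and 6973 and 6915 in DZA libraries, a log2 change of -0.73 ± 0.27 (limma, adjusted p = 0.172). Its DMSO libraries differed more from each other than library B did from the DZA libraries. TSA1 was 54751 and 67452 in DMSO and 41687 and 40007 in DZA libraries, a log2 change of -0.57 ± 0.16 (limma, adjusted p = 0.106). DESeq2 called both lower, with adjusted p = 0.0467 for TRX2 and 0.0248 for TSA1. AHP1 was 63746 and 62717 in DMSO and 43175 and 50801 in DZA libraries, a log2 change of -0.43 ± 0.15 (limma, adjusted p = 0.154).

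Calls at 15 min depended on which library was used. Leaving out either DMSO library gave 5 called members, 1 higher and 4 lower, of 2569 or 2791 called features. Leaving out either DZA library gave 0 called features, and the adjusted p of YAP1 was then 0.372 and 0.263 at log2 changes of 1.02 and 1.05.

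At 45 min limma called 47.4% of 6476 features, 23.7% in each direction, and 5 of the 10 genes, which is close to that share. YAP1, GSH1 and TRX2 rose, and TRR1 and TSA1 fell. YAP1 was 11842 and 11638 in DMSO and 24040.2 and 22875 in DZA libraries, a log2 change of 1.0 ± 0.05, or 2.0-fold (limma, adjusted p = 0.000566). GSH1 was 9439 and 9654 in DMSO and 12529 and 12613 in DZA libraries, a log2 change of 0.40 ± 0.05 (limma, adjusted p = 0.00383). TRX2 was 13458 and 12391 in DMSO and 16994 and 16505 in DZA libraries, a log2 change of 0.38 ± 0.06 (limma, adjusted p = 0.00940).

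Thioredoxin reductase was called lower where its substrate TRX2 was called higher, and the difference between the genes was not tested. The TRX2 paralog TRX1 was called lower as well, with a log2 change of -0.56 ± 0.12 (limma, adjusted p = 0.0212). TRR1 was 32106 and 32278 in DMSO and 24552 and 25435 in DZA libraries, a log2 change of -0.37 ± 0.05 (limma, adjusted p = 0.00530). TSA1 was 80679 and 74532 in DMSO and 64933 and 63515 in DZA libraries, a log2 change of -0.27 ± 0.06 (limma, adjusted p = 0.0258), and this call was lost in 3 of the 4 fits that left out 1 library. SRX1, which led the diamide response, was 111 and 173 in DMSO and 181 and 268 in DZA libraries. These did not overlap, and the log2 change was 0.66 ± 0.31 (limma, adjusted p = 0.147).

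Samples of the same letter deviated together at 45 min (correlation of the A minus B differences 0.58 over 6476 features). With the letter as a block, 9 of the 10 genes were called, 6 higher and 3 lower, beside 4831 of all 6476 features, so most features were called as well. The 4 added calls were SRX1 and AHP1 higher (limma, adjusted p = 0.00117 and 0.000127), TSA2 higher (adjusted p = 0.0180) and GLR1 lower (adjusted p = 0.00184). GPX2, at 8493 and 6630 in DMSO and 8388 and 6067 in DZA libraries, remained without a call.

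The change from 15 to 45 min was tested by the interaction of treatment and time, each time having its own DMSO libraries. No member was called, where 3.64% of 6299 features were. TRX2 differed by 1.10 ± 0.31 on the log2 scale (95% interval 0.35 to 1.85, limma, adjusted p = 0.116), AHP1 by 0.65 ± 0.19 (interval 0.19 to 1.11, adjusted p = 0.124) and GSH1 by 0.52 ± 0.16 (interval 0.13 to 0.91, adjusted p = 0.142). Without DMSO 15 min library A, TRX2 (0.72), GSH1 (0.69) and TSA1 (0.45, adjusted p = 0.0232) were called, among 1722 called features. Without library B, TRX2 (1.48) and GSH1 (0.35) were called, among 2103. YAP1 differed by -0.04 (interval -0.29 to 0.22, adjusted p = 0.887).

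**Figure D4:**
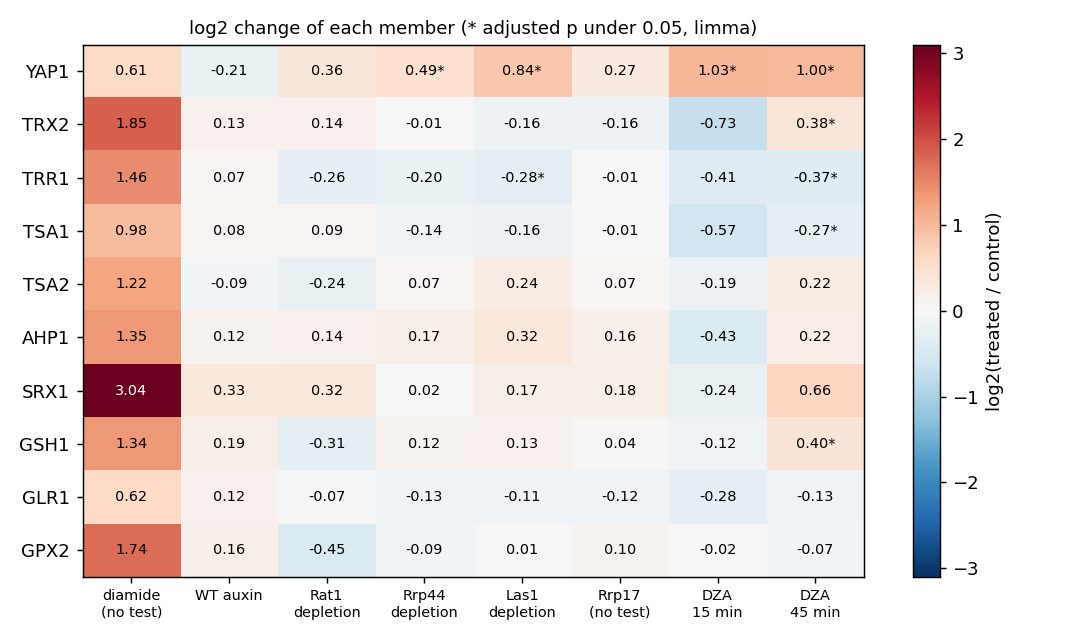
log2 change of each gene (rows) in each comparison (columns), coloured from blue (lower) to red (higher) on the scale at the right; a star marks an adjusted p under 0.05 in limma, and diamide and Rrp17 depletion have no test. The diamide column is positive throughout, from 0.61 to 3.04, while among the depletions and DZA the YAP1 row holds the largest increases, up to 1.03.

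The 49 further thiol, peroxide and Yap1-linked genes, in 5 lists drawn up from textbook knowledge with earlier results of these data known, gave the setting. After diamide 14 of the 49 were at least 2-fold higher and 0 at least 2-fold lower, with a median log2 change of 0.49. The 8 Yap1-linked genes (old yellow enzymes, drug exporters, NADPH-producing and aldehyde-reducing enzymes) held 5 of these, with a median of 1.37. The largest folds were those of OYE3, an old yellow enzyme, from 10.8 to 91.5 RPKM (8.40-fold), the mitochondrial peroxiredoxin PRX1 from 40.4 to 221.1 RPKM (5.46-fold) and the glutathione transferase GTT2 from 5.57 to 29.2 RPKM (5.16-fold). The lowest log2 changes were those of SKN7, the partner of Yap1 at peroxide-induced promoters, from 23.2 to 14.1 RPKM and of the glutaredoxin GRX4 from 18.4 to 11.2 RPKM.

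In the replicated comparisons the calls among the 49 genes are read against the share over all features. WT-TIR1 auxin gave 0 called by limma, as over all features. Rat1 depletion gave 3 higher and 2 lower (16.7% of all features called), Rrp44 depletion 5 and 4 (25.3%), Las1 depletion 9 and 7 (33.7%), DZA at 15 min 1 and 0 (4.93%), and DZA at 45 min 13 and 11 (47.4%). For Las1 depletion and 45 min of DZA the count was close to that share. Medians over the 49 genes ran from -0.17 at 15 min of DZA to near 0 at 45 min. At 45 min 5 of the 8 Yap1-linked genes were called higher and 1 lower, beside 23.7% of all features in each direction: FLR1, ATR1, ZWF1, AAD6 and AAD14 rose and OYE2 fell, with names given after their values were seen.

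The peroxisomal catalase CTA1 was the largest rise of the wider lists in all 5 treated comparisons. It was 257 and 291 in RAT1-AID mock and 2685 and 2087 in auxin libraries, a log2 change of 3.11 ± 0.20 (limma, adjusted p = 0.000374). The log2 change was 2.26 after Rrp44 depletion (adjusted p = 0.000192), 2.52 after Las1 depletion (adjusted p = 6.1e-06), 2.78 at 15 min of DZA (adjusted p = 0.0150) and 1.58 at 45 min (adjusted p = 0.000712), and -0.10 in WT-TIR1. After Rrp17 depletion it was 302 in mock and 475 and 562 in auxin libraries. After diamide it went from 1.32 to 3.31 RPKM on 17 and 51 reads.

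In the replicated comparisons the other changes named from the wider lists were each under 3-fold. FLR1, a drug exporter controlled by Yap1, was 808 and 761 in RAT1-AID mock and 2380.4 and 2077 in auxin libraries (log2 change 1.50 ± 0.16, limma, adjusted p = 0.00206). The cytosolic catalase CTT1 rose by 0.66 after Rrp44 depletion (adjusted p = 0.0151) and ECM38, which degrades glutathione, by 0.74 after Las1 depletion (adjusted p = 0.000879). OPT1, a glutathione transporter, fell by 0.50 after Rat1, 0.45 after Rrp44 and 0.67 after Las1 depletion (limma, adjusted p = 0.0441, 0.0148 and 0.000938). The copper chaperone CCS1 fell by 0.56 and 0.60 after Rrp44 and Las1 depletion (adjusted p = 0.00627 and 0.00310), and the glutaredoxin GRX7 fell by 0.66 after Rat1 depletion (adjusted p = 0.0327). At 45 min of DZA the aldehyde reductase homologue AAD6 rose by 1.50 (adjusted p = 0.00159), GRX4 fell by 0.72 (adjusted p = 0.00478) and the mitochondrial superoxide dismutase SOD2 fell by 0.67 (adjusted p = 0.00157).

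The genes that moved most like 3 of the members were sought over 8 comparisons (the 6 replicated ones, Rrp17 depletion and diamide) as the smallest root mean square difference of log2 changes among 4985 named genes. These are descriptions, and the comparisons differ in kit and scale. For YAP1 the nearest were SLF1 (0.11), an RNA-binding protein, UBX4 (0.17), which works with the segregase Cdc48, and HSF1 (0.17), the heat shock factor itself. SLF1 was called higher after Rrp44 and Las1 depletion and at both DZA times, with log2 changes of 0.53, 0.98, 1.16 and 1.02. HSF1 was called higher after Rrp44 depletion (0.33, limma, adjusted p = 0.0351), after Las1 depletion (0.61, adjusted p = 0.00179) and at 45 min of DZA (0.83, adjusted p = 0.000740).

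For TRX2 the nearest patterns were those of FRT2 (0.14), the drug exporter PDR15 (0.22) and the glutaredoxin GRX2 (0.22), all with log2 changes after diamide from 1.80 to 1.98 and at 15 min of DZA from -0.75 to -0.66. For SRX1 they were LSO1 (0.31), SGA1 (0.31) and OYE3 (0.35), with log2 changes after diamide from 2.98 to 3.40. None of the 3 genes nearest to TRX2 or SRX1 was among those nearest to YAP1.

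**Figure D5:**
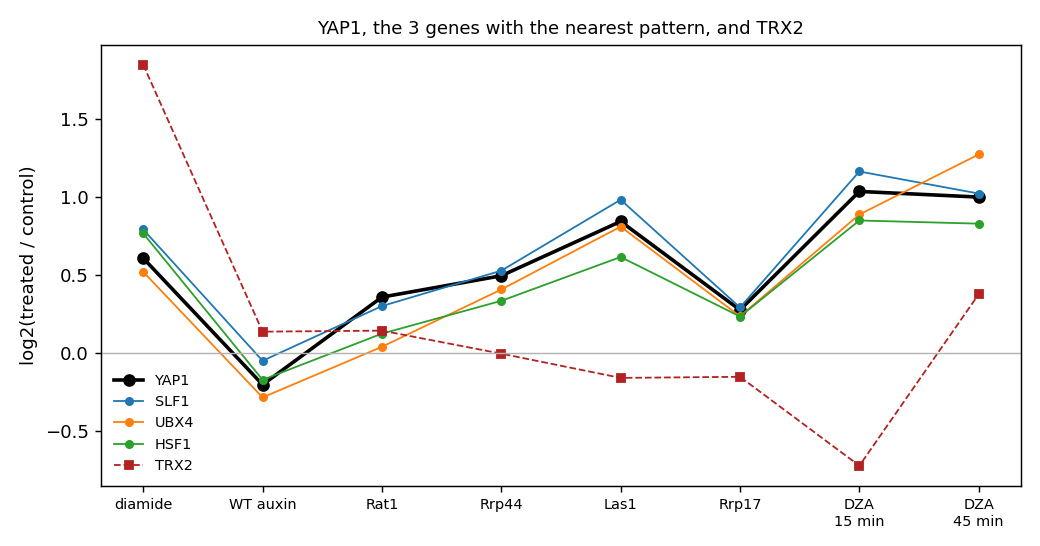
log2 change in each of 8 comparisons for YAP1 (black), the 3 genes with the smallest root mean square difference from it (SLF1 blue, UBX4 orange, HSF1 green) and TRX2 (dashed red); lines only join points of 1 gene. YAP1 and its neighbours are below 0 in WT-TIR1 and between 0.83 and 1.27 with DZA, whereas TRX2 is highest with diamide at 1.85 and lowest at 15 min of DZA at -0.73.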

How the data were processed

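The authors trimmed reads with cutadapt, aligned them with TopHat2 2.1.0 (builds R64 and sacCer3 in the submitters' processing notes), counted them per feature with HTSeq and ran DESeq2. Values deposited for auxin and DZA libraries are a signal, reads divided by DESeq2 size factors, each table scaled alone. Deposited diamide values are RPKM. The deposited tables also hold the authors' fold changes and p-values, which were not used. Division by the smallest step gave whole reads for 100.0% of values in the auxin and DZA libraries. In the diamide libraries only low values were checked, and 100.0% of them were whole within 0.05 reads. The step of RRP44-AID mock library B was too near 1 to settle, so that strain had no count-based tests.

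Members and lists were chosen with earlier results of these data known. Features with a mean of at least 10 were tested on log2(value + 1) by limma 3.58.1 (R 4.3.3, intensity trend, two-sided, treatment only), with Benjamini-Hochberg adjustment over all tested features and a call at an adjusted p under 0.05; edgeR 4.0.16 (quasi-likelihood, TMM) and DESeq2 1.42.0 were alternatives. Differences between comparisons were interaction terms. Fold changes are on the log2(value + 1) scale, or log2(RPKM + 0.1) for diamide, and understate the change of low genes. With 2 libraries against 2 an exact permutation test cannot fall below p = 0.333, so the p-values rest on limma's pooled spread. Per the labels, replicates were grown on separate days, so A and B were taken to pair mock and treated libraries. The study states this of treatment as well only for auxin, so that for DZA the pairing is less certain. Same-letter correlations were 0.45 (WT-TIR1), 0.11 (Rat1), 0.25 (Rrp44), 0.18 (Las1), -0.08 (DZA 15 min) and 0.58 (DZA 45 min). Alternatives were pseudocounts of 0.1 and 10, a filter at 100 or none, TMM scaling, centring on library medians, dropping the trend, the replicate block, and omission of each library in turn. The limma script was tested on simulated data. In the text all 10 members are named. Of the 49 further genes the 2 largest rises and 2 largest falls among the calls of each comparison are named, and the 3 largest rises and 2 largest falls after diamide. TRX1 was added as the paralog of TRX2, after its values were seen. Sites were read from the R64 RefSeq genome. Of the diamide intervals with an R64 gene of the same name, 97.2% contained that gene.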

Additional observations from a re-analysis of the deposited data

Results flagged for a closer look

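The YAP1 change after depletion differed from its change with auxin alone by a tested interaction, by 1.05 on the log2 scale for Las1 and by 0.70 for Rrp44. The Rrp44 call lay near the threshold (limma, adjusted p = 0.0448) and was lost in most fits that left out 1 library. Both differences are counted from a WT-TIR1 log2 change of -0.21, which was not called. A further 6 values were picked out because both Rrp17 auxin libraries lay on one side of their mock library and both same-letter pairs of another strain lay on the other side, and these differences were not tested. The share of all features that meets this rule was not counted, so the number of such values says nothing particular about the members. Some of the values lay close to 0. Against WT-TIR1 they were YAP1 (mean log2 difference after Rrp17 depletion 0.27, WT-TIR1 pairs -0.33 and -0.08), GLR1 (-0.12, pairs 0.17 and 0.08) and TRR1 (-0.0147, pairs 0.01 and 0.13). Against Rat1 depletion they were GPX2 (0.10, pairs -0.29 and -0.60), TSA2 (0.0682, pairs -0.13 and -0.35) and GSH1 (0.0380, pairs -0.31 and -0.31).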

How the results depend on the processing

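The count of called members moved by more than 1.5 times from 0 to 1 with the replicate block after Rat1 depletion (GPX2), from 2 to 1 after Las1 depletion with no filter, with a mean of at least 100 and with no intensity trend (TRR1 lost), from 1 to 3 with DESeq2 at 15 min of DZA, and from 5 to 9 with the replicate block at 45 min. After Las1 depletion the count stayed at 2 with median-centring, TMM, edgeR and DESeq2, but with AHP1 in place of TRR1, and was 3 with the block. The block changed no other call of a member than GPX2 after Rat1 depletion, AHP1 after Las1 depletion and the 4 at 45 min of DZA. Fits that left out 1 library gave 0 to 2 called members after Rrp44 depletion, 1 to 5 after Las1 depletion, 0 to 5 and 4 to 6 at 15 and 45 min of DZA, 0 to 3 for 45 against 15 min of DZA, and 0 to 1 for Las1 against Rat1 depletion and for Rrp44 depletion against WT-TIR1; the arm left with 1 library is then assumed to vary like the other. All other member counts, that of diamide (7) included, were unchanged or within 1.5 times, and no called value turned direction. Of 1477 member values under alternatives, 89 changed sign, none of them called, and none over 0.30 in size in the original fit. Over all features the calls went from 311 to 952 (DESeq2) or 158 (mean of at least 100) at 15 min of DZA, from 1091 to 1696 or 704 (block, mean of at least 100) after Rat1 depletion, from 2058 to 3101 and from 3069 to 4831 (block) after Las1 depletion and at 45 min, and from 0 to 8 (block) or 2 (DESeq2) in WT-TIR1. For the differences the block took them from 229 to 0 (DZA times), 49 to 164 (Las1, Rrp44), and, against WT-TIR1, 458 to 1001 (Las1), 343 to 541 (Rat1) and 315 to 576 (Rrp44). SRX1 is the shallowest member, and its standard errors of 0.22 to 0.31 limit what could be called for it. The causes of these shifts were not tested.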
